A study of Mus musculus with 12 samples.

Results

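The genes described here are 10 components of the NF-kB pathway, read in liver RNA of mice after chronic exercise. They were chosen by gene symbol, and all 10 were found among the 16821 genes listed for each mouse. The subunits of the transcription factor are Rela, Relb, Nfkb1 and Nfkb2, the inhibitors are Nfkbia and Tnfaip3, the kinase complex is Chuk, Ikbkb and Ikbkg, and the receptor is Tnfrsf1a. Liver was taken from adult male C57BL/6J mice, which entered the study at an age of 8 weeks, 6 of them sedentary controls (Con) and 6 trained (Exe). Training was treadmill running at moderate load for 6 weeks, on 5 days per week and for 60 min per day, and controls were not made to run. No transgene or drug is named for either group, and the saline-perfused livers were frozen within a day of the last run, clear of the large vessels and bile ducts. Principal components served the authors to leave out outlying mice, whose number is not given in the sources used here. Each mouse gave 1 library, and RNA levels are given as FPKM, which divide the fragments of a gene by its transcript length and by the mapped fragments of the library, so that levels of different genes can be compared per length. Because this is RNA of whole liver, fewer cells of a type and less RNA per cell cannot be told apart.

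NF-kB is a family of dimeric transcription factors that is held in the cytoplasm of resting cells by IkB proteins. When a receptor such as the TNF receptor is engaged, the IkB kinase complex marks IkB alpha for destruction, and dimers of Rela with the Nfkb1 product p50 enter the nucleus. A slower branch, driven by receptors such as the lymphotoxin beta receptor, uses Chuk to process the Nfkb2 product, which then pairs with Relb. NF-kB induces its own inhibitors Nfkbia and Tnfaip3, so that the response ends itself. In liver it protects hepatocytes from death by TNF and takes part in the acute-phase response, and Kupffer cells, the macrophages of the liver, use it to make cytokines. RNA levels do not show where in the cell the proteins are, and proteins were not analysed here.

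NF-kB acts on some of these genes through kappaB sites in their promoters, so the stretches that hold letters of such a site are shown. RefSeq promoters of GRCm38.p6, each 250 bases before to 50 bases after an annotated start, were at hand for 7 of the 10 genes, 13 promoters in all. Both strands were searched for GGGNNTTTCC and GGGNNTTCCC, forms of the kappaB site, which can overlap by all but 1 of their letters. At least 1 of the motifs was in 5 of the 13 promoters, 1 of 1 of Nfkbia, 1 of 2 of Tnfaip3 and 3 of 3 of Nfkb2, and in 3.24% of all 32851 promoters of the same length. The forms were written after the promoters of these genes had been read, so this is a description. The stretches below run 5′ to 3′ on the strand of the gene, with the match in capitals, and the Nfkbia and Tnfaip3 matches are on the opposite strand.
Nfkbia: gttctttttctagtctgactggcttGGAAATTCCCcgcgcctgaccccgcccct
Tnfaip3: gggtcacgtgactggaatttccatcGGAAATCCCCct
Nfkb2, first start: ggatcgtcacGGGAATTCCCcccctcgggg
Nfkb2, later start: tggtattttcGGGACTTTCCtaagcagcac
The Nfkbia stretch lies at chr12:55492648-55492701 (minus strand), touches no annotated GENCODE exon and ends at the base before the start. The Tnfaip3 stretch lies at chr10:19015411-19015447 (minus strand), inside the span of Tnfaip3 but outside its annotated exons. The Nfkb2 stretches lie at chr19:46304688-46304717 and chr19:46305695-46305724 (plus strand), both in annotated exons of Nfkb2. The first also lies in an exon of AC114539.1, and with no strand stated for the libraries, reads of these overlapping genes cannot be told apart. Further overlapping matches of Nfkb2, at chr19:46304726-46304736 just before the first start, are not printed. The match in the later Nfkb2 stretch lies after 1 annotated start of Nfkb2 and before another. The promoters of both starts share this match, and it is counted for each of them. No match was found in these windows for Rela, Chuk, Ikbkg or Tnfrsf1a, which says only that these letters are not there.

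Compared with the Con group, none of the 10 genes passed a test for a difference in the Exe group. Values were compared as log2(FPKM + 1) with limma (a linear model across all genes with moderated variances), over the 10241 genes with at least 1 FPKM in at least 6 of the 12 mice. Of the 10 genes, 8 passed this filter, and Relb and Tnfaip3 lay below it. Over all genes tested, 0 passed an adjusted p of 0.05 (0% of genes, Benjamini-Hochberg adjustment), and 636 (6.21%) passed an unadjusted p of 0.05, 4.27% higher and 1.94% lower in Exe mice. Of the 8 NF-kB genes tested, 0 passed either threshold, 3 were higher and 5 lower in Exe mice, and the median log2 fold change was -0.02, beside 0.02 over all genes tested. The groups overlapped for all 8, and did not overlap for 0.254% of all genes tested.

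**Figure D1:**
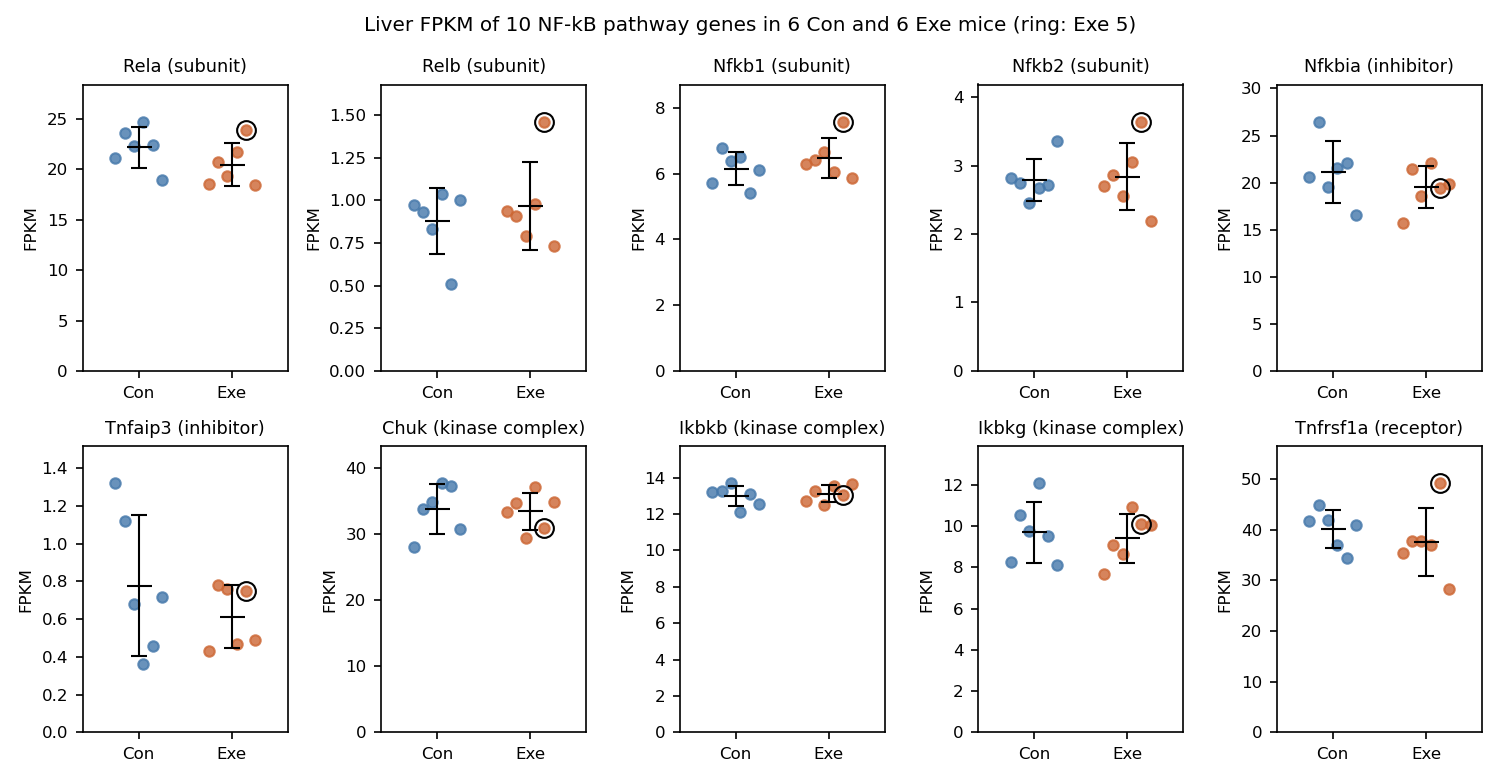
FPKM (y axes, linear from 0) of the 10 genes in 6 Con and 6 Exe mice; points are mice in the order of their numbers, bars are the mean with SD, and the ring marks Exe 5. The groups overlap in every panel, and Exe 5 is the highest mouse for Relb (1.46 FPKM), Nfkb1 (7.58), Nfkb2 (3.64) and Tnfrsf1a (49.18).

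Among the subunits, Rela (NCBI gene ID 19697), the p65 protein that carries the activation domain of the classical dimer, was the most abundant. It lay between 18.93 and 24.70 FPKM in Con mice (median 22.4) and between 18.41 and 23.88 FPKM in Exe mice (median 20.04). Exe 1 and Exe 6 lay below every Con mouse, Con 4 lay above every Exe mouse, and the rest overlapped. The Con mean was 22.2 ± 2.01 FPKM and the Exe mean 20.4 ± 2.13 FPKM (SD, n = 6 in each). The log2 fold change was -0.11 (standard error 0.08, 95% interval -0.28 to 0.05, adjusted p = 0.8997 from limma), and the exact two-sided permutation test over all splits of the 12 mice gave p = 0.169. Without Exe 5, the Exe mouse with the most Rela, the log2 fold change was -0.16 with an unadjusted p of 0.0472 and an adjusted p of 0.558 from limma. Rela was then 1 of 8 genes past the unadjusted threshold, where 8.9% of all genes passed and 3.53% did so as lower in Exe mice.

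Nfkb1 (18033), the precursor of p50, lay between 5.43 and 6.79 FPKM in Con mice (median 6.25) and between 5.86 and 7.58 FPKM in Exe mice (median 6.36). Only Exe 5 lay above every Con mouse, and Con 1 and Con 5 lay below every Exe mouse. Its log2 fold change was 0.06 (standard error 0.07, interval -0.08 to 0.21, adjusted p = 0.934 from limma), with an exact permutation p of 0.351. Rela and Nfkb1 thus pointed in different directions, neither beyond the spread between mice.

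Nfkb2 (18034), the precursor of p52 of the slower branch, lay between 2.45 and 3.36 FPKM in Con mice (median 2.73) and between 2.19 and 3.64 FPKM in Exe mice (median 2.79). The lowest and the highest of the 12 mice were both in the Exe group, Exe 6 and Exe 5. The log2 fold change was 0.01 (interval -0.18 to 0.20, adjusted p = 0.994 from limma), and the exact permutation p was 0.909.

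Relb (19698), the partner of p52, was at or above 1 FPKM in 3 of the 12 mice. It lay between 0.51 and 1.04 FPKM in Con mice (median 0.95) and between 0.73 and 1.46 FPKM in Exe mice (median 0.925). The lowest value was that of Con 5 and the highest that of Exe 5, and the other 10 mice lay between 0.73 and 1.04 FPKM. The exact permutation p was 0.548, and in a fit without the filter the log2 fold change was 0.06 (interval -0.14 to 0.27, adjusted p = 0.956 from limma), where the pseudocount shrinks changes of genes this low.

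Both inhibitors had lower means in Exe mice, with overlapping groups. Nfkbia (18035), which encodes IkB alpha, lay between 16.53 and 26.45 FPKM in Con mice (median 21.1) and between 15.76 and 22.06 FPKM in Exe mice (median 19.6). Con 2 and Con 5 lay above every Exe mouse, and Exe 1 lay below every Con mouse. The Con mean was 21.1 ± 3.27 FPKM and the Exe mean 19.5 ± 2.25 FPKM (SD, n = 6), and the log2 fold change was -0.10 (standard error 0.10, interval -0.32 to 0.11, adjusted p = 0.931 from limma). The exact permutation p was 0.359.

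Tnfaip3 (21929), which encodes A20, an enzyme that edits ubiquitin and shuts off the signal upstream of the kinase, was the least abundant of the 10 genes. It lay between 0.36 and 1.32 FPKM in Con mice (median 0.70) and between 0.43 and 0.78 FPKM in Exe mice (median 0.62). Con 1 and Con 2 lay above every Exe mouse, and Con 4, the lowest mouse, lay below all of them. Its coefficient of variation was 48.2% in Con mice and 27.0% in Exe mice, the widest of the 10 genes in both groups. The exact permutation p was 0.407, and the fit without the filter gave a log2 fold change of -0.12 (interval -0.39 to 0.15, adjusted p = 0.956 from limma).

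For the 3 genes of the kinase complex, the Exe mean was within 3.05% of the Con mean. Chuk (12675), which encodes IKK alpha, lay between 28.03 and 37.73 FPKM in Con mice (median 34.4) and between 29.51 and 37.14 FPKM in Exe mice (median 34.1). The Con range held all 6 Exe mice. Its log2 fold change was -0.01 (interval -0.18 to 0.16, adjusted p = 0.994 from limma, exact permutation p = 0.903).

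Ikbkb (16150) encodes IKK beta, the other kinase subunit of the complex. It lay between 12.09 and 13.68 FPKM in Con mice (median 13.1) and between 12.48 and 13.66 FPKM in Exe mice (median 13.2). All 12 mice fell in this narrow band, with a coefficient of variation of 4.38% in Con mice and 3.54% in Exe mice. The log2 fold change was 0.01 (standard error 0.05, interval -0.09 to 0.11, adjusted p = 0.98 from limma, exact permutation p = 0.680), the tightest interval of the 10 genes. The spread of Ikbkb within groups was 0.05 on the log2 scale, where the 201 tested genes nearest to it in mean FPKM, itself included, had a median of 0.14 and 0.498% of them a smaller one. For the other 7 genes tested, between 24.9% (Nfkb1) and 79.6% (Tnfrsf1a) of such neighbours had a smaller spread, so that only Ikbkb lay at an end.

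Ikbkg (16151), which encodes the scaffold NEMO, lay between 8.11 and 12.08 FPKM in Con mice (median 9.65) and between 7.66 and 10.95 FPKM in Exe mice (median 9.59). Con 4 was the highest and Exe 1 the lowest mouse. The log2 fold change was -0.04 (interval -0.25 to 0.17, adjusted p = 0.972 from limma, exact permutation p = 0.721).

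Tnfrsf1a (21937), the receptor for TNF on most cells, had the highest level of the 10 genes. It lay between 34.36 and 44.92 FPKM in Con mice (median 41.3) and between 28.35 and 49.18 FPKM in Exe mice (median 37.4). Both ends of the 12 values were Exe mice, with Exe 6 below and Exe 5 above every Con mouse, and the other 4 Exe mice were between 35.40 and 37.80 FPKM. The Con mean was 40.2 ± 3.79 FPKM and the Exe mean 37.6 ± 6.71 FPKM (SD, n = 6). The log2 fold change was -0.11 (interval -0.33 to 0.12, adjusted p = 0.932 from limma, exact permutation p = 0.392), and without Exe 5 it was -0.18 with an unadjusted p of 0.0543.

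**Figure D2:**
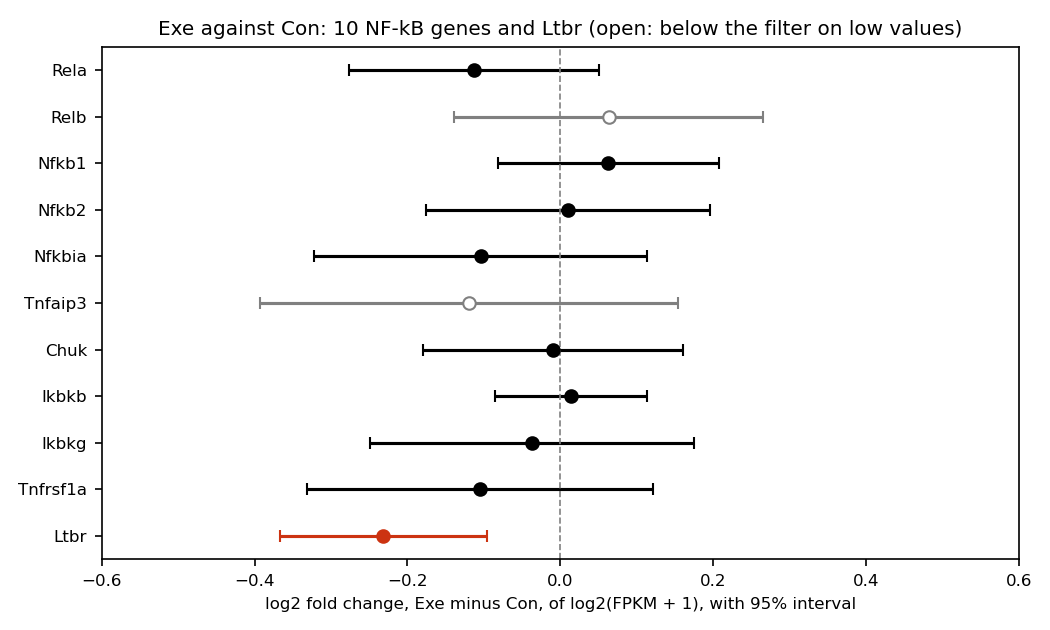
Log2 fold change of Exe against Con (x axis, on the log2(FPKM + 1) scale) with its 95% interval from limma for the 10 genes and for Ltbr, the pathway gene outside them with the smallest p; open points are the genes below the filter, from the fit without it. Every interval of the 10 genes crosses 0, from the tightest for Ikbkb (-0.09 to 0.11) to the widest for Tnfaip3 (-0.39 to 0.15), and that of Ltbr does not.

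Levels per length, as means over the 12 mice, ran from 38.9 FPKM for Tnfrsf1a through Chuk (33.6), Rela (21.3), Nfkbia (20.3), Ikbkb (13.0), Ikbkg (9.57), Nfkb1 (6.32), Nfkb2 (2.82) and Relb (0.924) to Tnfaip3 (0.695 FPKM). Most neighbours in this order kept it in all 12 mice, and 3 pairs overlapped. Tnfrsf1a was above Chuk in 8 mice, Rela above Nfkbia in 8 mice and Relb above Tnfaip3 in 10 mice. Tnfrsf1a was higher than 83.8% of the genes tested, and Nfkb2 higher than 21.6%. At the RNA level Chuk was thus above Ikbkb, the other kinase subunit of the complex, in every mouse. The subunits of the classical dimer, Rela and Nfkb1, were above Nfkb2 and Relb in every mouse.

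Single mice stood high or low for several of the genes. Exe 5 was the highest of the 12 mice for 4 of the 10 genes, Relb, Nfkb1, Nfkb2 and Tnfrsf1a, and Con 4 was the highest for Rela, Chuk and Ikbkg. Exe 6 was the lowest mouse for Rela, Nfkb2 and Tnfrsf1a. Exe 5 also had the largest sum of 16 acute-phase genes (58219 FPKM, against 14984 to 26513 FPKM in the other Exe mice and 14809 to 55163 FPKM in Con mice). The sums of marker genes in Exe 5 were 9.21 FPKM for 8 B and T cell genes (3.02 to 6.14 in the other 11 mice) and 31.25 FPKM for 9 genes of pancreatic acinar cells (8.51 to 17.0). Of the acinar genes, Cela1 lay between 7.65 and 16.4 FPKM in the 12 mice, at 9.78 in Exe 5. Amy2a5 was at 0 in all Con mice and 6.60 FPKM in Exe 5. Pnlip, Cpa1, Prss2 and Cel were above 0 only in Exe 3 and Exe 5, and Clps only in Exe 5. Ctrb1 was at 3.62 FPKM in Exe 5 and highest in Exe 4 (4.26 FPKM). For 11 Kupffer cell genes the sum in Exe 5 was 519.67 FPKM, second to Con 2 at 573.25. Their part in the values of Exe 5 was not tested.

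**Figure D3:**
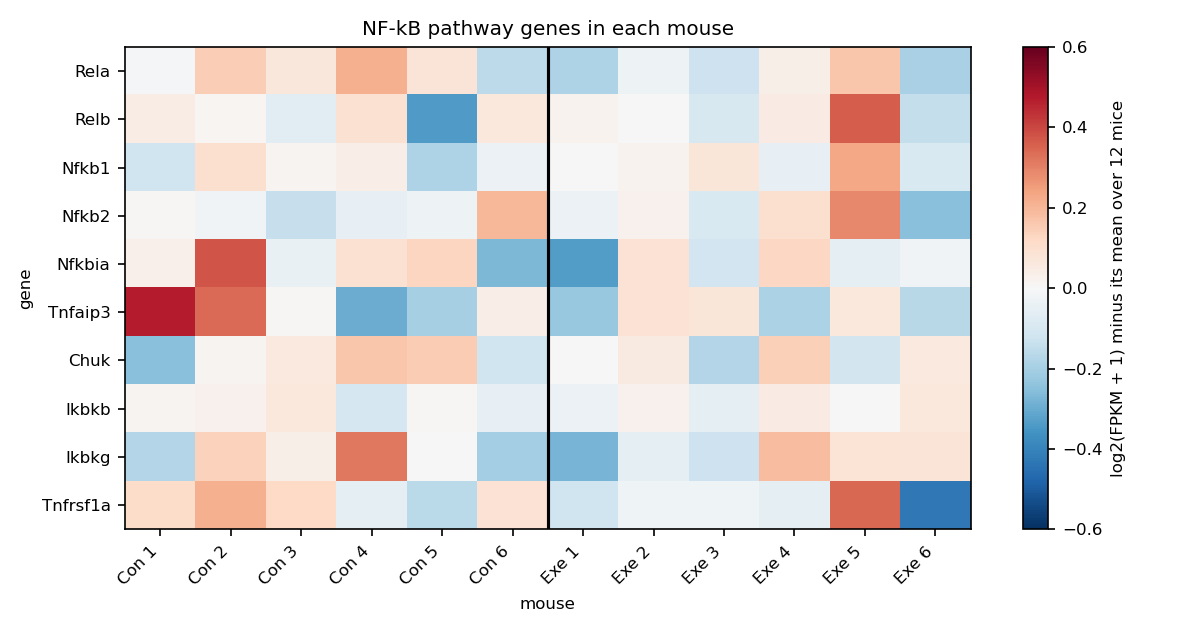
Log2(FPKM + 1) of each of the 10 genes (rows) minus its mean over the 12 mice (color), in the 6 Con and 6 Exe mice (columns, split by the line). Exe 5 is high for Relb, Nfkb1, Nfkb2 and Tnfrsf1a, Con 1 and Con 2 are high for Tnfaip3, and Ikbkb is pale throughout.

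From mouse to mouse, some of the 10 genes went together and others did not. Pearson's r was taken over the 12 mice after the group means were subtracted, as a description with no test, since values of a mouse share its library. Tnfrsf1a and Relb went with Nfkb1 and with Nfkb2. For Tnfrsf1a, r was 0.79 with Nfkb1 (Spearman's rho 0.67), 0.77 with Relb (0.54) and 0.72 with Nfkb2 (0.47), and without Exe 5 these r were 0.65, 0.60 and 0.52. For Relb, r was 0.73 with Nfkb1 (rho 0.62) and 0.70 with Nfkb2 (0.57), and 0.56 and 0.50 without Exe 5. Nfkb1 and Nfkb2 went together less closely, with r of 0.41 (rho 0.17), and 0.06 without Exe 5. Rela went with Ikbkg (r 0.76, rho 0.76) and Nfkbia (0.63, rho 0.66), and without Exe 5 these were 0.79 and 0.75. Chuk and Tnfaip3 ran opposite to each other, with r of -0.75 (rho -0.70), and -0.74 without Exe 5. Of the 28 pairs of the 8 genes tested, 7 had an r over 0.5 (25%), which 9.94% of all pairs of tested genes had.

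**Figure D4:**
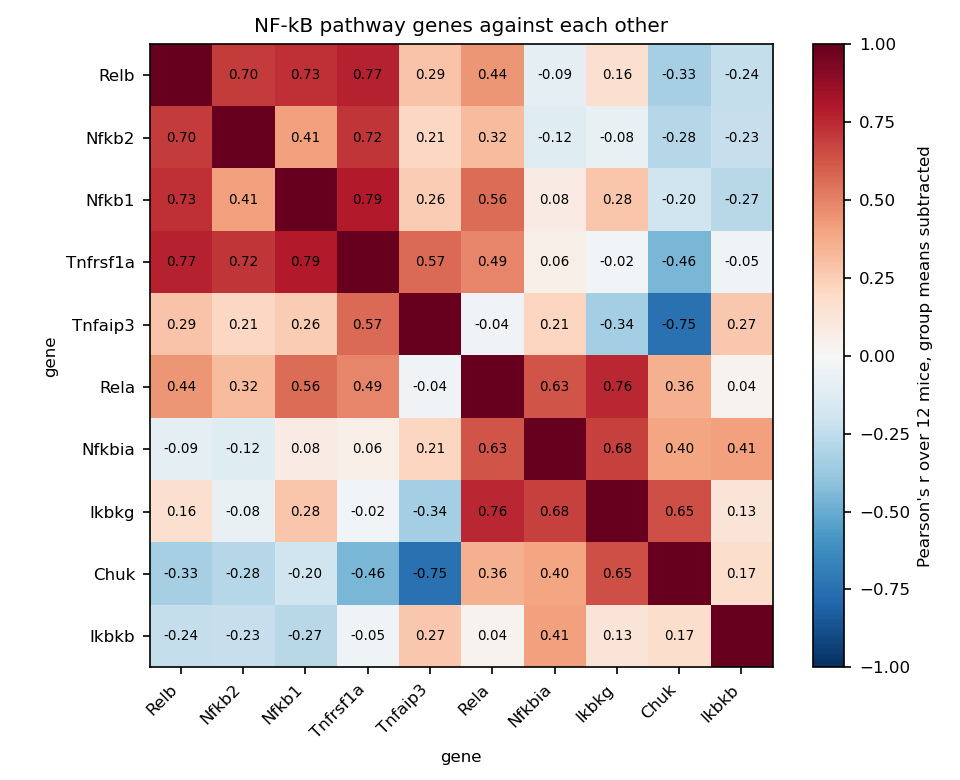
Pearson's r between the 10 genes (both axes) over 12 mice with group means subtracted, as color and number. Relb, Nfkb2, Nfkb1 and Tnfrsf1a have positive values with each other, from 0.41 for Nfkb1 with Nfkb2 to 0.79 for Nfkb1 with Tnfrsf1a, as do Rela, Nfkbia and Ikbkg, and Chuk with Tnfaip3 has the lowest value (-0.75).

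The genes most like Rela over the 12 mice, by Pearson's r of log2(FPKM + 1) with group means subtracted among all genes tested, were Zfp62 (r 0.98), Rap1b (0.94), Dync1li2 (0.93), Arid3b (0.92) and Phc2 (0.92). Those most like Nfkbia were Hnf4a (0.92), Hyal2 (0.92), Gpr107 (0.91), Cactin (0.91) and Scaf1 (0.91). They were picked as the highest of all genes, so the size of r is a description.

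The level of the acute-phase response differed widely between mice, with a mean log2(FPKM + 1) of 16 acute-phase genes from 7.96 in Con 4 to 10.6 in Exe 5. Beside it, Chuk was lower in mice with more acute-phase RNA, with r of -0.78 and rho of -0.72 over the 12 mice. Its r was -0.83 within Con mice and -0.76 within Exe mice (n = 6 each). Without Con 1 and Exe 5, the mice farthest from the median, it was -0.66. An r of this size, in either direction, was seen in 2.87% of the other genes tested.

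Tnfaip3 and Tnfrsf1a were higher in mice with more acute-phase RNA. For Tnfaip3, r was 0.74 (rho 0.71), 0.91 within Con mice and 0.41 within Exe mice, and 0.70 without Con 1 and Exe 5, and 4.56% of tested genes had an r of this size. For Tnfrsf1a, r was 0.68 (rho 0.78), 0.87 within Con and 0.60 within Exe mice, and 0.52 without these mice, with 8.16% of genes at this size. For Rela, r was 0.06 over the 12 mice, but -0.48 within Con and 0.42 within Exe mice. Exe 5 was the highest Exe mouse for both Rela (23.88 FPKM) and the acute-phase level (10.6). Without Exe 5, r of Rela was -0.15 over the remaining mice of both groups. For Ikbkb, r was 0.15, with 0.58 within Con and -0.37 within Exe mice, and 0.17 without Exe 5. Nfkb1 had an r of 0.40, with 0.15 within Con and 0.84 within Exe mice, and Nfkbia one of -0.13, with -0.11 and -0.32. Exe 5 was also the highest mouse for Nfkb1 (7.58 FPKM). Without Exe 5, r over the remaining mice of both groups was 0.11 for Nfkb1 and -0.10 for Nfkbia. These relations were computed for all 10 genes and none was tested. The sum of 8 hepatocyte markers was lowest in Con 1 at 67351 FPKM and highest in Exe 2 at 90636 FPKM, and other lists moved with Chuk about as closely. With group means subtracted, r of Chuk was -0.73 with the mean log2(FPKM + 1) of the neutrophil genes, 0.71 with that of the hepatocyte genes and 0.70 with that of the endothelium genes, beside -0.80 with that of the acute-phase genes. Their part in these relations was not tested.

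**Figure D5:**
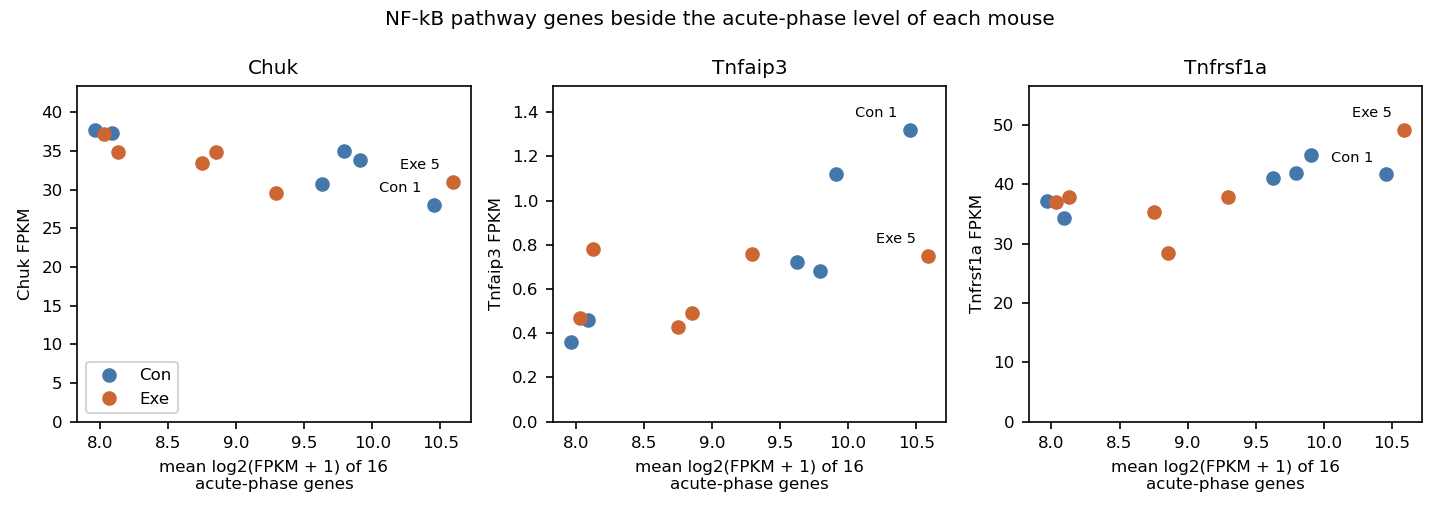
FPKM of Chuk, Tnfaip3 and Tnfrsf1a (y axes, linear from 0) against the mean log2(FPKM + 1) of 16 acute-phase genes (x axis) in 6 Con and 6 Exe mice, a point per mouse. Con 4, at the low end of the x axis, has 37.73 FPKM of Chuk and 0.36 FPKM of Tnfaip3, Con 1 has 28.03 and 1.32 FPKM, and Exe 5, at the high end, has 31.00 and 0.75 FPKM.

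Around these 10 genes, the rest of the pathway showed no excess of genes past an unadjusted p. A list of 57 further genes was read, of which 56 were in the files and 41 were tested. Of these, 22 were higher and 19 lower in Exe mice (median log2 fold change 0.005, beside 0.016 over all genes tested), 0 passed an adjusted p of 0.05, and 1 passed an unadjusted p of 0.05, which 6.21% of all genes tested did, so that the count is no more than that share gives. That gene was Ltbr (17000), the lymphotoxin beta receptor at the head of the slower branch. Ltbr lay between 55.85 and 64.45 FPKM in Con mice (median 58.5) and between 46.03 and 59.28 FPKM in Exe mice (median 49.4), and 5 of 6 Exe mice lay below every Con mouse, with Exe 5 the exception. The Con mean was 58.9 ± 2.95 FPKM and the Exe mean 50.2 ± 4.83 FPKM (SD, n = 6), with a log2 fold change of -0.23 (standard error 0.06, interval -0.37 to -0.10). The unadjusted p from limma was 0.00262 and the adjusted p 0.708, and the exact permutation p was 0.0130. It remained past the unadjusted threshold in each of the 19 alternatives, with log2 fold changes from -0.28 to -0.21 when each mouse was left out, and past the adjusted threshold in none.

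By role, all 4 tested subunit and IkB genes outside the 10 were higher in Exe mice, and none passed a test. Over all 10241 genes tested, 5892 were higher. Among the 10 genes, Nfkb1 and Nfkb2 of these roles were also higher, and Rela and Nfkbia lower. The most abundant of the 4 were Nfkbib (IkB beta, 17.1 ± 1.11 and 17.3 ± 0.973 FPKM in Con and Exe mice), Bcl3 (16.6 ± 2.48 and 18.2 ± 4.77 FPKM) and Nfkbiz (3.13 ± 0.824 and 3.59 ± 0.581 FPKM). Of 19 tested kinase and adaptor genes, 10 were higher and 9 lower. The most abundant were Irak1 (14.3 ± 0.933 and 14.8 ± 1.05 FPKM) and Myd88 (10.9 ± 1.57 and 9.98 ± 1.27 FPKM), which carry signals of interleukin-1 and Toll-like receptors, and Tab2 (14.4 ± 2.98 and 14.1 ± 2.81 FPKM), a partner of the kinase that activates the IkB kinases. Of 9 tested genes of the ubiquitin machinery, 6 were higher and 3 lower. Its linear ubiquitin ligase subunits Rbck1 (19.0 ± 1.59 and 19.0 ± 0.852 FPKM) and Sharpin (18.5 ± 1.78 and 18.6 ± 0.596 FPKM) had near-equal means, and Otulin, which removes such chains, was at 28.4 ± 2.06 and 26.8 ± 2.10 FPKM. Of 9 tested receptors and ligands, 7 were lower and 2 higher, with Il1rap at 51.6 ± 4.83 and 55.5 ± 7.42 FPKM and Il1r1 at 13.5 ± 1.76 and 12.4 ± 2.16 FPKM (all SD, n = 6). Tnf itself, the ligand of Tnfrsf1a, was between 0.04 and 0.57 FPKM in the 12 mice, below the filter, with an exact permutation p of 0.848.

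Of 27 genes that NF-kB is known to induce, 19 were tested, 9 higher and 10 lower after exercise, and their median log2 fold change was -0.03. The most abundant, Fth1 (ferritin heavy chain) and Sod2 (mitochondrial superoxide dismutase), neither passed a test. Fth1 had a Con mean of 1184 ± 125 and an Exe mean of 1242 ± 86.4 FPKM, and Sod2 47.5 ± 2.73 and 51.2 ± 3.21 FPKM (SD, n = 6). Junb, an AP-1 subunit that other signals induce as well, was the only one past an unadjusted p of 0.05, 1 of 19 where 6.21% of all genes tested passed. Junb lay between 16.28 and 41.55 FPKM in Con mice (median 27.0) and between 9.10 and 25.89 FPKM in Exe mice (median 18.9), with 3 Exe mice below every Con mouse. Its log2 fold change was -0.63 (standard error 0.26, interval -1.19 to -0.08, unadjusted p = 0.0285 and adjusted p = 0.793 from limma), and the exact permutation p was 0.0606. Without Con 3, Con 4, Exe 1 or Exe 2, the unadjusted p was between 0.0619 and 0.0693. In the other 15 of the 19 alternatives Junb stayed past the unadjusted threshold. The smallest unadjusted p, with the replicate number as a block, was 0.000166 (adjusted p = 0.489 from limma). Without Exe 5, Icam1, Vcam1 and Ccnd1 joined Junb past the unadjusted threshold, with log2 fold changes of -0.35, -0.45 and -0.50 and adjusted p of 0.504, 0.332 and 0.533 from limma. These 4 genes were lower in Exe mice, where 8.9% of all genes passed in this fit and 3.53% did so as lower. Icam1, Vcam1 and Ccnd1 were named after their values were seen, and Exe 5 was the highest of the 12 mice for all 3.

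The acute-phase genes, in part driven by NF-kB with Stat3, gave 13 lower and 3 higher of 16 tested, where 4349 of all 10241 genes tested were lower. Of the 16 genes, 0 passed an adjusted p of 0.05, and their median log2 fold change was -0.19. Their spread was wide: Hpx had a Con mean of 6002 ± 2043 FPKM and an Exe mean of 4869 ± 2136 FPKM, with Hp at 4236 ± 1839 and 4080 ± 2047 FPKM, and Fgb at 3746 ± 727 and 3559 ± 1226 FPKM (SD, n = 6). Crp was the only one past an unadjusted p of 0.05, 1 of 16 where 6.21% of all genes tested passed, with a Con mean of 209 ± 22.2 FPKM, an Exe mean of 239.8 ± 17.7 FPKM and a log2 fold change of 0.20 (unadjusted p = 0.0179 and adjusted p = 0.793 from limma, exact permutation p = 0.00866). Under quantile normalization between mice it did not pass (log2 fold change 0.16, unadjusted p = 0.0643). Without Exe 5, Saa3 and Fga, named after their values were seen, also passed the unadjusted threshold, both lower in Exe mice (log2 fold changes -1.64 and -0.34, adjusted p of 0.514 and 0.543 from limma). In this fit 8.9% of all genes passed, and 3.53% did so as lower. Exe 5 was the highest Exe mouse for both genes (134.81 FPKM of Saa3 and 3881 FPKM of Fga), so its removal lowers their Exe means.

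Over all genes the libraries were of like scale, while sums of marker genes differed between mice. The sum of FPKM over all genes lay between 735200 and 820107, the median FPKM of the genes tested lay between 7.42 and 8.12, and any pair of libraries differed in at least 14724 genes. The depth in reads is unknown, so that no counting error is given. The tissue showed its hepatocyte markers, with sums of 8 genes, led by Alb and Apoa1, of 67351 to 85862 FPKM in Con mice and 76208 to 90636 FPKM in Exe mice. Marker sums in Con and Exe mice were 313 to 573 and 227 to 520 FPKM for Kupffer cells (11 genes, led by Cd5l and C1qc), and 79.5 to 133 and 93.8 to 119 FPKM for endothelium (9 genes, led by Clec4g and Fcgr2b). For neutrophils (11 genes, led by S100a8 and S100a9) they were 13.7 to 36.3 and 10.5 to 56.5 FPKM. For stellate cells (9 genes, led by Dcn and Rgs5) they were 53.3 to 107 and 58.0 to 104 FPKM, for bile duct (6 genes, led by Spp1 and Krt19) 27.3 to 75.6 and 25.6 to 77.0 FPKM, and for red cells (5 genes, led by Hba-a1 and Hbb-bs) 235 to 903 and 400 to 1290 FPKM. No gene of these lists was at 0 in all 12 mice. All 11 Kupffer cell genes tested had lower means in Exe mice, where 4349 of all 10241 genes tested were lower. These genes were read in the same 12 mice, so they are not separate observations, and 0 passed an unadjusted p of 0.05. Past it were 2 of 8 hepatocyte genes and 1 of 5 red cell genes, all higher in Exe mice, where 4.27% of all genes tested were called as higher, and 0 genes of the other marker lists.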

How the data were processed

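Liver RNA of 12 mice was sequenced with paired reads on the DNBseq platform. The authors cleaned the reads, mapped them with HISAT against GRCm39 and deposited 1 FPKM value per gene and mouse. The submitters' processing notes also name Bowtie2 and mm10. How the FPKM were made, and whether mice were scaled to each other, is not given in the sources used here. The authors tested with DESeq, which needs counts, so limma 3.58.1 (R 4.3.3, lmFit and eBayes with a trend) was used on log2(FPKM + 1) for genes with at least 1 FPKM in at least 6 mice, a term for group, and Benjamini-Hochberg adjustment over all genes tested. P-values set the difference between groups against the spread between mice within groups, which limma moderates across all genes tested. The fit was tested on simulated data. Correlations, given with no p, and exact two-sided permutation tests of mean log2 values used Python 3.11.15 with numpy 2.4.6, pandas 2.3.3 and scipy 1.17.1, and plots matplotlib 3.10.9. Mice shared numbers across groups, and the sources used here do not say that these pair them, so the main fit had no pairing. All 10 gene IDs matched the RefSeq table.

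The genes and gene lists were chosen with earlier results of these data known. The genes named were the 10 genes, those of the lists past an unadjusted p of 0.05, the 3 most abundant of each list or role (2 of each marker list), and the 5 most like Rela and Nfkbia. The alternatives were quantile normalization, median scaling, a pseudocount of 0.1, no filter, a filter in all mice, robust variance moderation, the replicate number as a block and each mouse left out. Protein data were not analysed here.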

Additional observations from a re-analysis of the deposited data

Results flagged for a closer look

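Dixon's ratio of a gap to the range of a group was taken in 42 sets of 6 mice, of which 20 were sets of the 10 NF-kB genes, and 7 lay above its 95% critical value, where chance gives about 1 in 20 sets. Of the 20 sets of NF-kB genes, 1 lay above it, no more than that rate gives. It was Relb in Exe 5 (1.46 FPKM, ratio 0.658), a gene below the filter on low values. The other sets above the critical value were sums of lists. In Exe 5 they were acute-phase genes (58219 FPKM, ratio 0.733), B and T cell genes (9.21 FPKM, 0.786), bile duct genes (76.96 FPKM, 0.689) and pancreatic acinar genes (31.25 FPKM, 0.789). In Con 1 it was neutrophil genes (36.27 FPKM, 0.627), and in Con 5 stellate cell genes, which were low (53.26 FPKM, 0.766). Spp1 gave 71.28 FPKM of the bile duct sum of Exe 5, and was at 71.09 FPKM in Con 3. Of the other bile duct genes, Sox9 was highest in Exe 5, and Krt19, Krt7, Epcam and Cldn7 were highest in Con 6. Krt19 was at 18.07 FPKM in Con 6 and 1.61 FPKM in Exe 5.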

How the results depend on the processing

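Over 19 alternatives, 0 genes passed an adjusted p of 0.05, except that without the filter on low values 1 gene did, D630003M21Rik. Genes past an unadjusted p of 0.05 were 636 as reported, and 418 (without Exe 2) to 905 (without Exe 5) when each mouse was left out. Of the 8 NF-kB genes, 0 passed it in every alternative but 1, since Rela passed without Exe 5, so that the range was 0 to 1. The sign of the log2 fold change turned under some alternatives for Chuk (5 of 19), Nfkb2 (3), Ikbkg (2) and Ikbkb (1), and for Rela, Nfkb1, Nfkbia and Tnfrsf1a under none. Of the other pathway genes, 1 passed as reported, 2 with quantile normalization and 2 with the replicate block, each time Ltbr with Ltb, and 1 to 5 with each mouse left out. The highest count was without Con 6, where 529 of all 10191 genes tested passed an unadjusted p of 0.05. This fit added Map3k8, Ikbke, Tnfrsf1b and Il1b, named after their values were seen. Of the induced genes, 1 passed as reported, 2 without the filter, with Il6 added, and 0 to 4 with each mouse left out, 0 without Con 3, Con 4, Exe 1 or Exe 2 and 4 without Exe 5. Of acute-phase genes, 1 passed as reported, 0 with quantile normalization and 1 to 3 with each mouse left out, the latter without Exe 5. The cause was not tested. The sources used here do not say whether mice of the same number were handled together. The correlation of deviations between such mice was between -0.48 and 0.16 over 6 pairs. Taken over all genes, this cannot show whether the numbers pair the mice. The replicate block, with 567 genes at an unadjusted p of 0.05, changed no call of the 8 NF-kB genes tested. Quantile normalization moved the share of genes past an unadjusted p of 0.05 that were higher in Exe mice from 68.7% to 56.4%. Without read counts, the depth behind Relb and Tnfaip3, both near or under 1 FPKM, is unknown.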

Other observations

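Within a mouse, the ratio of FPKM between partners was also read, as a description with no test, since the ratios were chosen after their values were seen. Rela over Nfkb1, the partners of the classical dimer, was 3.61 ± 0.349 in Con mice (3.09 to 4.13) and 3.16 ± 0.246 in Exe mice (2.90 to 3.58; SD, n = 6). Chuk over Ikbkb was 2.61 ± 0.342 in Con mice and 2.55 ± 0.152 in Exe mice. Nfkbia over Rela, the inhibitor over the subunit it holds, was 0.951 ± 0.0993 in Con mice and 0.959 ± 0.106 in Exe mice, although both genes had lower means in Exe mice. Nfkb1 over Nfkb2 was 2.23 ± 0.319 and 2.32 ± 0.278. In each ratio the groups overlapped.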
